A study of Mus musculus with 12 samples.

Results

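Of 21887 protein-coding genes on mouse chromosomes 1 to 19, X and Y, 6 genes of the steroid-making Leydig cell of the testis are described here: Lhcgr, Nr5a1, Star, Cyp11a1, Cyp17a1 and Insl3. They were taken from a fixed list of somatic genes, and every listed peak that touches the gene body or the 5 kb on either side of it was counted. Chromatin came from cells labelled as spermatogenic, isolated at postnatal day 18 from testes of mice of mixed background. INO80, the motor subunit of a chromatin remodelling complex, was precipitated from Wild type cells, and the histone variant H2A.Z from Ino80WT cells and from Ino80cKO cells, in which Ino80 was deleted by Stra8-Cre. Stra8 is a gene of germ cells entering meiosis, so this Cre is aimed at germ cells and not at Leydig cells. Each of the 3 precipitations and its input has 2 libraries, 12 in all, and the labels do not say whether the 2 came from separate animals. The values analysed are 3 peak lists, 1 for each precipitation, which leaves the values without replicate error or sequencing depth and allows no test between genotypes.

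Leydig cells lie between the seminiferous tubules and make testosterone when luteinizing hormone binds its receptor, the product of Lhcgr. The nuclear receptor NR5A1 (steroidogenic factor 1) turns on most genes of the pathway. STAR carries cholesterol to the inner mitochondrial membrane, CYP11A1 cuts its side chain to give pregnenolone, and CYP17A1 takes the product on towards androgens. INSL3 is a peptide hormone of Leydig cells that guides the descent of the testis. In chromatin, H2A.Z often marks nucleosomes beside start sites and enhancers, and the INO80 complex can move nucleosomes and exchange H2A.Z. A peak reports occupancy and not transcription. In a mixed preparation, fewer cells of a type and less signal per cell cannot be told apart.

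The RefSeq promoter table of GRCm38.p6, the assembly of mm10, holds start sites for 3 of the 6 genes (Lhcgr, Cyp11a1 and Insl3); Star, Cyp17a1 and Nr5a1 have no entry. The 4 promoters below show 4 different states of the same window, 250 bases before to 50 after the start site. That of Lhcgr was touched by peaks of all 3 lists, the first of Cyp11a1 by H2A.Z of both genotypes and no INO80, that of Insl3 by INO80 and no H2A.Z, and the second start site of Cyp11a1 by no peak. The 250 bases before each start site are printed 5′ to 3′ on the gene's strand, with every CG dinucleotide in capitals.
Lhcgr (minus strand, chr17:88792015-88792264): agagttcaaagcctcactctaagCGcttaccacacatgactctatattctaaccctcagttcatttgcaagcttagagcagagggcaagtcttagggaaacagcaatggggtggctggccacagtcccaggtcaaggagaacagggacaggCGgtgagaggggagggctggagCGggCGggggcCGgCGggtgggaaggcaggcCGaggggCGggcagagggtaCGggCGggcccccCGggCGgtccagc
Cyp11a1, first start site (plus strand, chr9:57997774-57998023): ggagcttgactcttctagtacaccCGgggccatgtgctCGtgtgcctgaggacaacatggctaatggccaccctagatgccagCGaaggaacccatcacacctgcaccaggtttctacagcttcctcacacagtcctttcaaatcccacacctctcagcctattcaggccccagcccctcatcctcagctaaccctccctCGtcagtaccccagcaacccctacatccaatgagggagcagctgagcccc
Cyp11a1, second start site (plus strand, chr9:58014702-58014951): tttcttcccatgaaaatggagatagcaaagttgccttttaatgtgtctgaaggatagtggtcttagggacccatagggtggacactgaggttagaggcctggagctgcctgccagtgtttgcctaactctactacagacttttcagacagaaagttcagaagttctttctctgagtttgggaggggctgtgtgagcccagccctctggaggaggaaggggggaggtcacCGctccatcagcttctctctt
Insl3 (plus strand, chr8:71689002-71689251): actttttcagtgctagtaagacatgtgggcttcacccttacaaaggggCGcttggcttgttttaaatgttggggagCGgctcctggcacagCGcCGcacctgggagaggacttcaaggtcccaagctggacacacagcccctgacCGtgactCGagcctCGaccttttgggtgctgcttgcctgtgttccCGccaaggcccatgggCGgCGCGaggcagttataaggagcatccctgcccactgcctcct

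Over the full 300 bases, the Insl3 promoter held 16 CG dinucleotides, that of Lhcgr 14, the first of Cyp11a1 7 and the second 1. The median over all 32851 promoters of the table was 7 (quartiles 3 and 20). Promoters touched by INO80 had a median of 24 and those touched by no list a median of 3. The 4 promoters thus ran in CG content from below the median of untouched promoters up to a level still below the median of INO80 promoters, and both that INO80 touched were richer in CG than both that it did not. Across the table INO80 touched 34.1% of promoters, wild-type H2A.Z 40.5% and knockout H2A.Z 35.1%. The state of the Lhcgr promoter, all 3 lists, was shared by 26.6% of promoters, that of the first Cyp11a1 promoter (H2A.Z of both genotypes without INO80) by 7.40%, and that of Insl3 (INO80 without H2A.Z) by 3.78%. No peak, as at the second Cyp11a1 start site, was the state of 54.7%. The median CG count of promoters in the Lhcgr state was 26, and in that of the first Cyp11a1 promoter 14. In the Insl3 state it was 16, equal to the count of Insl3, and with no peak 3.

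The same windows were searched on both strands for letters that NR5A1, GATA factors and cAMP-responsive factors are known to bind. The nuclear receptor core AGGTCA stood at positions -122 to -117 of the Lhcgr promoter and -28 to -23 of the second Cyp11a1 promoter, and 16.3% of all promoters hold it. The longer CAAGGTCA, which contains that core, was in none of the 4 and is in 1.56% of all. GATAG occurred at 2 places in the second Cyp11a1 promoter (23.5% of all promoters hold it), and GATAA in none of the 4 (25.4%). TGACG was found on the reverse strand at -50 to -46 of the first Cyp11a1 promoter (20.8%), and TGACGTCA, which contains it, in none (1.79%). Only exact copies of these strings were counted and variants of them were not searched, so an absence here covers the exact string alone. The matches describe the letters in these windows and do not show binding.

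Counted over gene body and flanks, INO80 peaks lay at 3 of the 6 genes (Insl3, Lhcgr and Nr5a1), where 63.3% of all protein-coding genes and 65.6% of the 16566 within the length range of the 6 genes were called by the same rule. Wild-type H2A.Z lay at 4 genes, the same 3 and Cyp11a1, against a background of 73.6% (76.5% in the length range). Knockout H2A.Z lay at the same 4 genes, against 70.1% (72.7%). Star and Cyp17a1 held no peak of any list, which was so for 25.0% of genes (21.9%). With 6 genes these shares stand near the background. All 3 lists met at Insl3, Lhcgr and Nr5a1, as at 60.6% of genes (62.5%), and H2A.Z of both genotypes without INO80 occurred at Cyp11a1 alone among the 6, as at 8.93% (9.59%). The map of the 6 windows shows how differently the peaks are laid out from gene to gene.

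**Figure D1:**
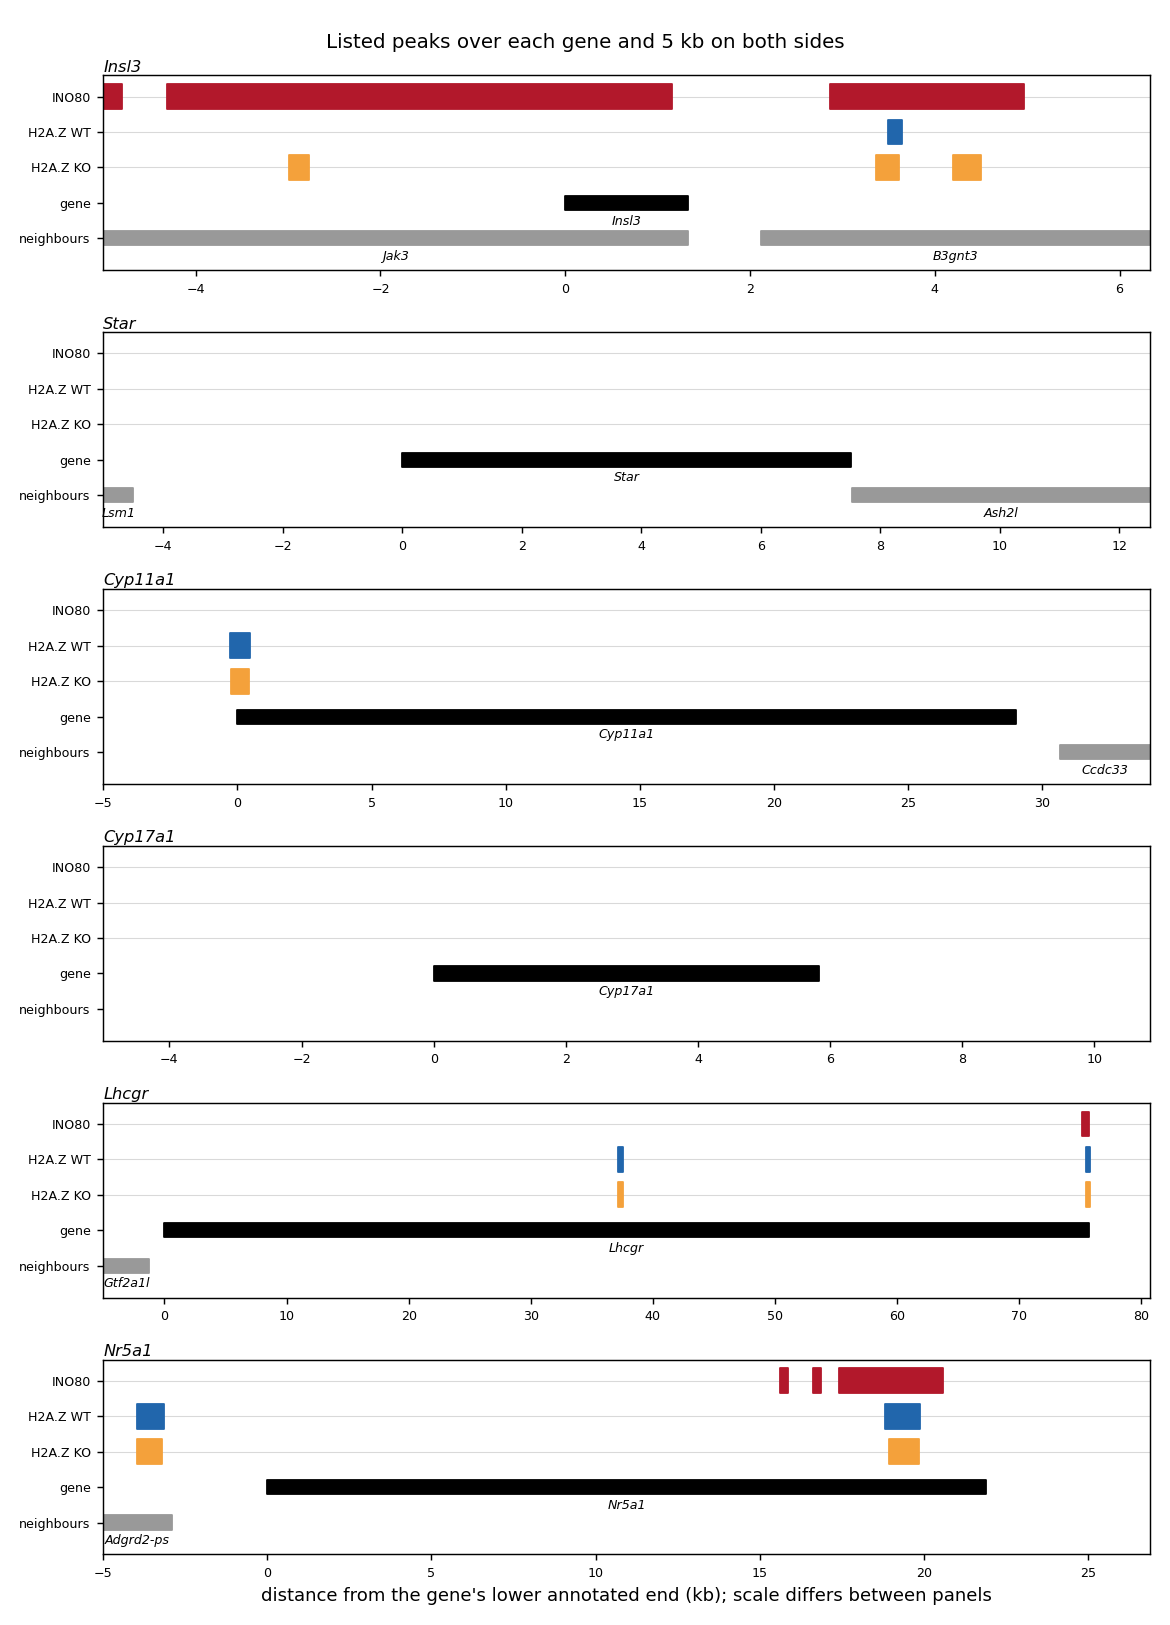
Listed peaks over each of the 6 genes, with the distance in kb from the gene's lower annotated end on the horizontal axis and 1 row each for INO80, wild-type H2A.Z (H2A.Z WT) and knockout H2A.Z (H2A.Z KO); black bars are the genes, grey bars neighbouring coding genes and 1 pseudogene that peaks overlap, all clipped at the window. INO80 fills most of the Insl3 window, the windows of Star and Cyp17a1 are empty, and the H2A.Z peaks of Cyp11a1, Lhcgr and Nr5a1 stand at the same places in both genotypes.

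The gene of the luteinizing hormone receptor, Lhcgr (gene 16867, chromosome 17, 88716384 to 88792059, 75.7 kb, minus strand), had an INO80 peak and H2A.Z peaks of both genotypes at its start site. The INO80 peak (88791537 to 88792108, 572 bp) reached from position -94 to 477 relative to the start site. The wild-type H2A.Z peak (88791837 to 88792159, 323 bp) reached from -145 to 177 and the knockout peak (88791840 to 88792166, 327 bp) from -152 to 174. All 3 peaks thus span the start site, with INO80 extending farther into the gene than H2A.Z. Of the INO80 peak, 47.6% lay inside the wild-type H2A.Z peak. The INO80 peak was of modest width, since 43.6% of INO80 peaks were narrower.

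A further pair of H2A.Z peaks lay deep inside Lhcgr, 38.3 kb from the start site. The wild-type peak (88753556 to 88753953) was 398 bp wide and the knockout peak (88753556 to 88753923) 368 bp, with the same first base. No INO80 peak overlapped either. Exon positions were not used here, so the pair is placed within the gene only. Gtf2a1l, a germ cell relative of a general transcription factor subunit, ends 1.23 kb beyond the far end of Lhcgr. No peak of the Lhcgr window overlapped Gtf2a1l, and none had another gene's start site or end nearer than that of Lhcgr.

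Nr5a1 (gene 26423, chromosome 2, 38692656 to 38714542, 21.9 kb), which encodes the pathway's transcription factor, held the widest H2A.Z peaks among the 6 genes. A wild-type peak of 1073 bp (38711472 to 38712544) and a knockout peak of 927 bp (38711601 to 38712527) lay inside the gene, 1998 and 2015 bp from its higher annotated end. Both lay wholly inside a broad INO80 peak of 3155 bp (38710089 to 38713243), which itself stops 1299 bp short of that end. Of all INO80 peaks 97.4% were narrower. The wild-type H2A.Z peak took up 34.0% of this INO80 peak and the knockout peak 29.4%. Over the 484 INO80 peaks from 3 kb to under 5 kb, the median cover was 40.9% by wild-type and 31.4% by knockout H2A.Z, so Nr5a1 was close to both medians.

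Next to the broad peak, INO80 was also listed at 38709278 to 38709531 (254 bp) and at 38708277 to 38708532 (256 bp), both within Nr5a1 and neither with H2A.Z. Both are narrow, with 18.1% and 18.2% of the list narrower. A further H2A.Z pair was counted for Nr5a1 only through the flank. It lies 3141 bp (wild type, 38688691 to 38689515, 825 bp) and 3221 bp (knockout, 38688693 to 38689435, 743 bp) outside the lower end of the gene, over the transcribed pseudogene Adgrd2-ps. Nr5a1 is the nearest coding gene, but the pair overlaps another annotated gene and held no INO80. The neighbour on the other side, Nr6a1, which encodes a germ cell nuclear receptor, lay outside the window, and beyond the higher end of Nr5a1 the next peaks were 210.6 kb (INO80) and 211.0 kb (H2A.Z of both genotypes) away.

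Star (gene 20845, chromosome 8, 25808474 to 25815982, 7.51 kb), the cholesterol carrier, had no peak in its 17.5 kb window. The nearest INO80 peaks stood 22.8 kb and 24.3 kb away on the 2 sides, nearest to Bag4 and Ash2l. The nearest wild-type H2A.Z peaks stood 22.5 and 24.3 kb away and the nearest knockout peaks 22.6 and 24.4 kb away, at Lsm1 and Ash2l. Ash2l, which encodes a subunit of histone H3 lysine methyltransferase complexes, begins in annotation 18 bp from the end of Star, so the empty window includes part of that gene, while all 3 lists had peaks deeper inside Ash2l. Peaks thus stood at neighbours on both sides in both genotypes and not at Star.

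Cyp17a1 (gene 13074, chromosome 19, 46667165 to 46673000, 5.84 kb), the hydroxylase and lyase of androgen synthesis, was also empty in a 15.8 kb window. The nearest wild-type H2A.Z peak stood 16.9 kb away, nearest to Borcs7 (576 bp, against 504 bp in the knockout), and on the other side 67.6 kb away, nearest to Wbp1l (669 bp, against 304 bp in the knockout). The nearest INO80 peaks were 88.02 and 93.6 kb away. Short genes are often empty under this rule. Among the 7925 coding genes under 10 kb, to which Star, Cyp17a1 and Insl3 belong, 45.4% had no peak of any list, against 18.2% of genes from 10 to 40 kb and 6.96% of longer ones.

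Cyp11a1 (gene 13070, chromosome 9, 57998024 to 58027031, 29.0 kb, plus strand), the side chain cleavage enzyme, carried 1 H2A.Z peak in each genotype and no INO80. The wild-type peak (57997749 to 57998490, 742 bp) spanned the first start site from -275 to 466 and the knockout peak (57997775 to 57998438, 664 bp) from -249 to 414. The knockout peak lay wholly within the wild-type one. In width both stood in the upper part of their lists, with 71.4% of wild-type and 69.5% of knockout peaks narrower. The second start site, 16.9 kb into the gene, had none. The nearest INO80 peak stood 56.5 kb from the gene, nearest to Sema7a. Ccdc33, the neighbour past the far end, contributed no peak to the window.

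Insl3 (gene 16336, chromosome 8, 71689252 to 71690577, 1.33 kb, plus strand), the peptide hormone gene, was the only one of the 6 covered mostly by INO80. A single INO80 peak of 5468 bp (71684944 to 71690411) covered its start site, reaching from position -4308 to 1159, and 87.5% of the gene body. It ranked 51st of 18139 INO80 peaks by width. No wild-type H2A.Z peak overlapped it, and the only H2A.Z peak inside it was a knockout peak of 212 bp (71686265 to 71686476), 2776 bp before the start site, which takes up 3.88% of the INO80 peak. Most of the INO80 peak is not over Insl3: 21.2% of it (1160 bp) lies in the Insl3 body, and all of it lies in Jak3, the cytokine receptor kinase gene whose annotated span (71676383 to 71690577) ends at the same base as Insl3. By the nearest start site the peak belongs to Insl3 and by gene body to Jak3.

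The other peaks of the Insl3 window lay outside the gene. An INO80 peak of 2101 bp (71692118 to 71694218) stood 1541 bp past its end, within B3gnt3, a glycosyltransferase gene on the opposite strand. Inside it lay a wild-type H2A.Z peak of 148 bp (71692747 to 71692894), 1 bp above the narrowest peak of any list, and knockout peaks of 249 bp (71692612 to 71692860) and 299 bp (71693450 to 71693748). An INO80 peak of 320 bp (71684139 to 71684458) in Jak3 held no H2A.Z. The start site of Insl3 is the nearest for all 7 peaks of the window. By gene body, 3 of them lie in Jak3 (1 also in Insl3) and 4 in B3gnt3, so all H2A.Z counted for Insl3 lies within a neighbour's body.

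How often an INO80 peak lacks wild-type H2A.Z varied with its width. Over all INO80 peaks 17.0% overlapped none, with 30.7% under 500 bp, 4.87% from 2 kb to under 3 kb, 7.23% from 3 kb to under 5 kb and 14.9% (10 of 67) at 5 kb or more, the class of the Insl3 peak. Among these 10, the Insl3 peak was the only one with a knockout peak inside. The other 9 had no H2A.Z of either genotype, 3 of them over 19 kb wide, nearest to Gas8 and Rhou and each lying over annotated ribosomal RNA genes. Mapping quality under these peaks was not tested. Of the 7 INO80 peaks over the 6 genes, 4 overlapped no wild-type H2A.Z (2 at Insl3, 2 at Nr5a1), and 3 of the 4 were 320 bp or narrower.

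**Figure D2:**
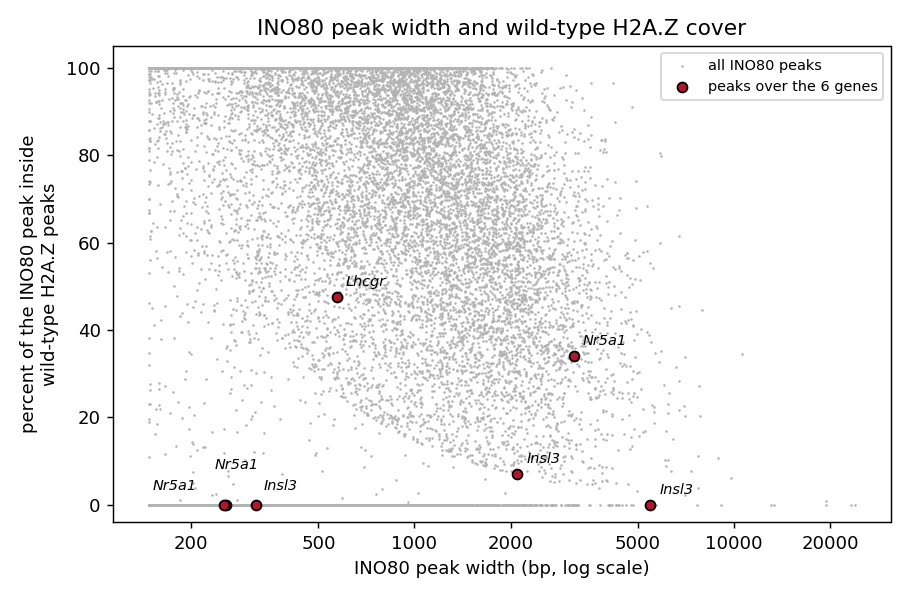
Each point is 1 INO80 peak, with its width in bp on a log axis and the percent of it inside wild-type H2A.Z peaks; grey points are all 18139 INO80 peaks and red points the 7 over the 6 genes. The broad Insl3 peak (5468 bp) sits at 0 cover, while Nr5a1 (3155 bp, 34.0%) and Lhcgr (572 bp, 47.6%) lie among the other peaks.

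Set side by side as the share of the window inside peaks, INO80 came in the order Insl3 (68.7%), Nr5a1 (11.5%) and Lhcgr (0.668%), with the other 3 genes at 0. The median over all coding genes was 0.975%. Only 1 coding gene, the predicted gene Gm13278, had a higher INO80 share than Insl3, and Nr5a1 stood above 93.6% of genes. The Insl3 window is the shortest of the 6 (11.3 kb), and 7776 bp of it lay inside INO80 peaks. For wild-type H2A.Z the order was Nr5a1 (5.95%), Cyp11a1 (1.90%), Insl3 (1.31%) and Lhcgr (0.842%), around a median over all genes of 1.61%. For knockout H2A.Z it was Insl3 (6.71%), Nr5a1 (5.24%), Cyp11a1 (1.70%) and Lhcgr (0.811%), around a median of 1.16%. Insl3 was the only one of the 6 whose window had more bases inside knockout than inside wild-type H2A.Z peaks, 760 bp against 148 bp. All of these bases lie in the bodies of Jak3 or B3gnt3 and none in that of Insl3. Without replicates, neighbours in these orders cannot be separated from each other.

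**Figure D3:**
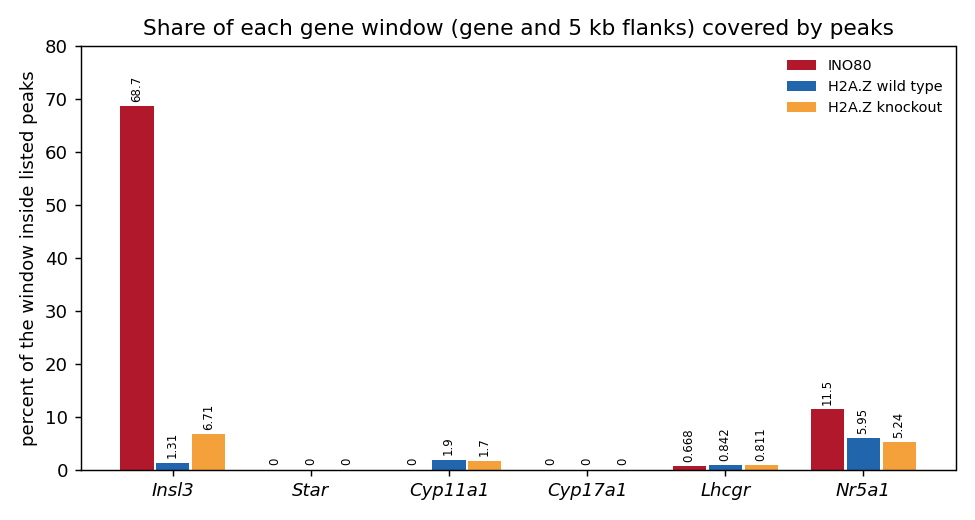
Percent of each gene window (gene body and 5 kb on both sides) inside listed peaks, as bars from 0 for INO80, wild-type H2A.Z and knockout H2A.Z; each bar is 1 list for 2 libraries and has no error. INO80 covers 68.7% of the Insl3 window and 11.5% of the Nr5a1 window, and no list covers any of Star or Cyp17a1.

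The genotype comparison asks whether H2A.Z at these genes differs once Ino80 is deleted. No gene of the 6 had H2A.Z in the wild type alone (4.00% of all genes did, 4.44% in the length range) and none in the knockout alone (0.571%, 0.652%). There were 6 wild-type and 8 knockout H2A.Z peaks over the 6 genes. All 6 wild-type peaks overlapped a knockout peak, while 30.1% of all wild-type peaks had no such partner. At least 1 wild-type peak without a partner was present at 0 of the 6 genes, against 20.5% of all genes (19.3%). Whether a peak has a partner goes with its width: 73.2% of wild-type peaks under 200 bp lacked one, 29.4% from 300 to 499 bp, 9.12% from 500 to 999 bp and 0.802% at 1 kb or more. Of the 6 wild-type peaks, 1 was under 200 bp, 2 lay from 300 to 499 bp, 2 from 500 to 999 bp and 1 above that.

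Of the 8 knockout peaks, 2 had no wild-type partner, where the share over the whole knockout list was 6.62%. Both lie in the Insl3 window, the only one of the 6 with such a peak (5.03% of genes have one, 4.76% in the length range). Both lie wholly within INO80 peaks. Of the 1735 unpartnered knockout peaks, 22.5% overlapped an INO80 peak by at least 1 bp, and the share lying wholly inside was not counted. The 212 bp peak was 6271 bp from the nearest wild-type peak and the 299 bp peak 556 bp from it. Among knockout peaks from 200 to 299 bp, 11.8% had no wild-type partner. Neither peak touches Insl3 itself; the first lies in Jak3 and the second in B3gnt3.

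The 6 partnered pairs were compared in width. At the Lhcgr start site the knockout peak was 1.01 times as wide as the wild-type peak (327 against 323 bp), and at the inner Lhcgr pair 0.925 times (368 against 398 bp). At Nr5a1 the ratio was 0.864 inside the gene and 0.901 over the pseudogene, and at Cyp11a1 0.895. These 5 ratios all lay between the quartiles of the 22367 pairs of 1 wild-type with 1 knockout peak in the genome (0.659 and 1.01, median 0.877), the first of them at the upper quartile. Knockout peaks were narrower in 72.2% of all pairs, and in 4 of these 5. The pair by Insl3 had a ratio of 1.68 (249 against 148 bp), and 97.1% of all pairs had a lower one. For the 1406 pairs whose wild-type peak was under 200 bp the median ratio was 1.12.

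The edges of the pairs were compared between genotypes. Given as knockout minus wild-type position at the lower and higher edge, the differences were 3 and 7 bp at the Lhcgr start site, 0 and -30 bp at the inner Lhcgr pair and 26 and -52 bp at Cyp11a1. They were 129 and -17 bp inside Nr5a1, 2 and -80 bp over Adgrd2-ps, and -135 and -34 bp at the pair by Insl3, whose wild-type peak is 148 bp wide. At the Lhcgr start site the 2 peaks shared 97.0% of their joint span, more than 96.3% of all pairs did. The other 4 pairs outside the Insl3 window shared from 86.4 to 92.5% of their joint span, where the median over all pairs was 75.7%. The pair by Insl3 shared 40.3%. The pairs with an INO80 peak over them (Lhcgr start site, Nr5a1 inside the gene, Insl3) and those without (Cyp11a1, inner Lhcgr pair, Adgrd2-ps) overlapped in width ratio, from 0.864 to 1.68 and from 0.895 to 0.925. Widths depend on the peak threshold and depth of each list, so these ratios do not measure an amount of H2A.Z.

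**Figure D4:**
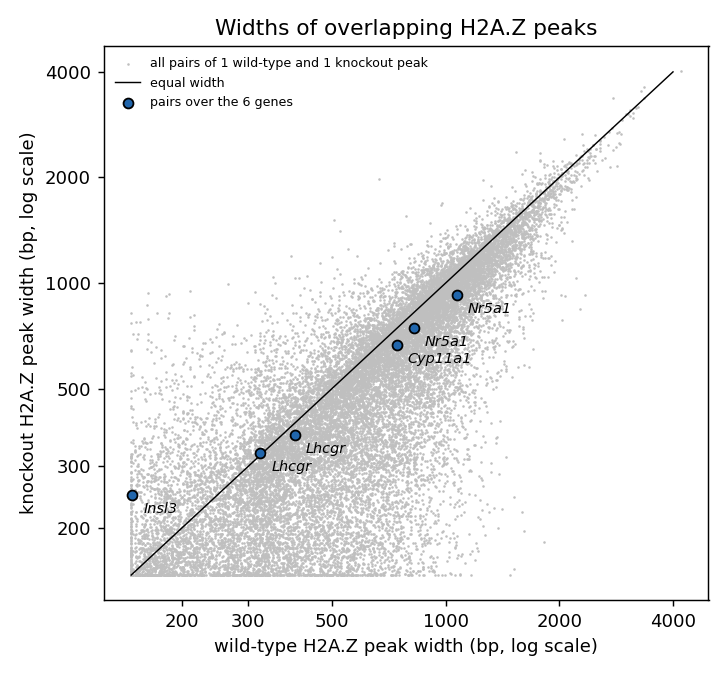
Width in bp of the wild-type H2A.Z peak (horizontal, log axis) against that of the overlapping knockout peak (vertical, log axis) for all 22367 pairs (grey) and the 6 pairs over the described genes (blue); the line marks equal width. The pairs at Lhcgr, Cyp11a1 and Nr5a1 lie on or just below the line and the pair by Insl3 (148 and 249 bp) above it.

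The rest of the pathway was described with 3 more lists. Of 17 steroid enzymes and their electron donors (median length 20.6 kb), 8 had INO80 (47.1%, against 63.3% of all coding genes), 10 wild-type H2A.Z (58.8%, against 73.6%) and 9 knockout H2A.Z (52.9%, against 70.1%). No peak of any list lay at 7, where 25.0% of all coding genes had none. Differences between lists were not tested. Those 7 included Hsd3b1 and Hsd3b6, the dehydrogenases that work between CYP11A1 and CYP17A1, and the adrenal enzymes Cyp11b1, Cyp11b2 and Cyp21a1. Hsd17b3, which makes testosterone in the testis, was like Cyp11a1 in having H2A.Z of both genotypes (907 and 461 bp) and no INO80. The widest INO80 peaks of this list stood at Fdxr (3086 bp), Srd5a2 (1741 bp), Hsd17b1 (1730 bp) and Fdx1 (555 bp). Fdxr and Fdx1 are electron donor genes that feed CYP11A1. The Fdx1 peak was narrower than the median of all INO80 peaks (678 bp). Srd5a2 was the only gene of the list with H2A.Z in the wild type alone (205 bp). None of the 4 electron donor genes (Fdx1, Fdxr, Por and Cyb5a) was empty, which stands near the background, since 25.0% of all coding genes were.

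Among 15 genes of cholesterol supply (median length 22.7 kb), INO80 lay at 11 (73.3%, against 63.3% of all coding genes), wild-type H2A.Z at 15 (against 73.6%) and knockout H2A.Z at 14 (93.3%, against 70.1%). Scarb1, the lipoprotein receptor, had the widest INO80 peak (1795 bp), and peaks also lay at the lysosomal transporter gene Npc1 (1300 bp) and the sterol demethylase gene Cyp51 (988 bp). Tspo, a mitochondrial outer membrane protein, had H2A.Z in the wild type alone (255 bp at most). Among 19 Leydig regulators and receptors, INO80 lay at 15 (78.9%), wild-type H2A.Z at 17 (89.5%) and knockout H2A.Z at 15 (78.9%), beside the same background of 63.3, 73.6 and 70.1%. These genes are longer (median 33.1 kb), and longer genes were called more often: INO80 lay at 45.6% of coding genes under 10 kb, 67.8% from 10 to 40 kb and 80.8% of longer ones. As at Nr5a1, the INO80 peaks at transcription factor genes were broad: 4747 bp at Nr2f2 and 4002 bp at Gata4, with 4358 bp at the growth factor receptor gene Pdgfra and 4251 bp at the hedgehog receptor gene Ptch1. At Igf1, a growth factor gene, H2A.Z was listed in the wild type alone (350 bp).

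By the summed difference in window share over the 3 lists, the pathway genes most like Cyp11a1 were Dhcr7 (0.840 percentage points) and Hsd17b3 (0.890), and those most like Lhcgr were Soat1 (0.658) and Esr1 (0.826). Nr5a1 was nearest to Gata6 (1.88) and Ptch1 (4.70). Insl3 had no near match, with Fdxr at 58.0 and Gli1 at 58.3 percentage points. This measure rests on 3 values per gene and is a description. It does not compare peak numbers. Esr1 had 8 wild-type and 4 knockout H2A.Z peaks and Soat1 1 and 1, against 2 and 2 at Lhcgr.

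Markers of the cell types that the preparation could hold were counted by the same rule, and the background over all coding genes was again 63.3% (INO80), 73.6% (H2A.Z, wild type) and 70.1% (H2A.Z, knockout). The 15 germ cell markers had INO80 at 12, wild-type H2A.Z at 15 and knockout H2A.Z at 14, with wide INO80 peaks at Zbtb16 (3285 bp), Kit (2466 bp), Dazl (1545 bp) and Uchl1 (1204 bp). Sycp3 had H2A.Z in the wild type alone (351 bp). Sertoli cell markers had them at 8, 9 and 9 of 12, led by INO80 at Sox9 (4432 bp), Wt1 (3949 bp), Inhbb (3623 bp) and Dhh (2695 bp). Peritubular myoid markers had them at 4, 4 and 3 of 6, with Tpm2 (2220 bp) and Des (1353 bp) ahead of Myh11 (298 bp) and Cnn1 (154 bp). Macrophage markers had them at 1, 3 and 1 of 6, the INO80 peak being at Cd68 (1240 bp), and endothelial markers at 2, 6 and 4 of 6, with INO80 at Kdr (2089 bp) and Cdh5 (274 bp). H2A.Z in the wild type alone, the state of 4.00% of all coding genes, was found at Myh11, at Cd163 and Mrc1, and at Pecam1 and Emcn. No peak of any list lay at 3 of 12 Sertoli, 2 of 6 myoid and 3 of 6 macrophage markers, and at 0 germ cell and 0 endothelial markers. Of all coding genes 25.0% had none. The part of residual somatic cells in the peaks over Lhcgr, Nr5a1, Cyp11a1 and Insl3 was not tested.

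**Figure D5:**
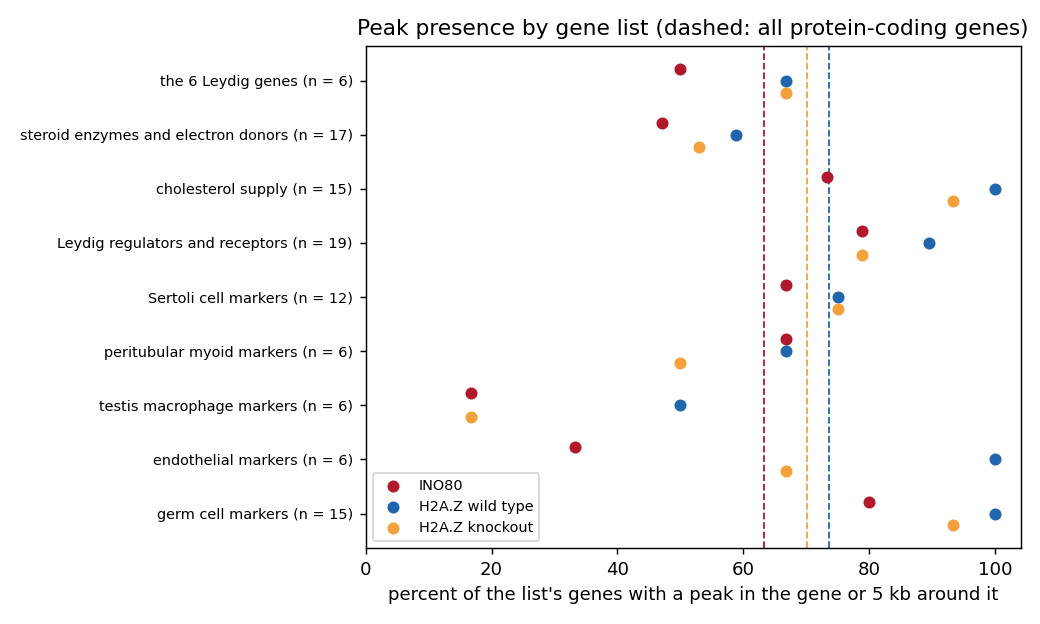
Percent of the genes of each list (number of genes in brackets) with an INO80, wild-type H2A.Z or knockout H2A.Z peak in the gene or 5 kb around it; dashed lines are the shares of all protein-coding genes (63.3, 73.6 and 70.1%). The 6 Leydig genes (50, 66.7 and 66.7%) lie a little below the dashed lines, beside the steroid enzymes and below the germ cell markers.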

How the data were processed

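Per the labels' protocols, cells were passed through a 40 micron filter, fixed in 0.3% formaldehyde for 30 min and cut with micrococcal nuclease, which shapes peak outlines. The authors deposited 3 peak lists of 3 columns (chromosome, start, end), without score, fold or p-value: 18139 INO80, 33827 wild-type and 26199 knockout H2A.Z peaks. The submitters' processing notes list mm10, Bowtie2, SAMtools, deepTools and MACS2 without roles; the sources used here give no settings, control or way of pooling libraries. Start and end were used as deposited and printed 1-based.

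Overlap meant at least 1 bp. Gene positions, biotypes and 32851 promoters came from RefSeq tables of GRCm38.p6. A peak was assigned to the nearest start site of a coding gene, or to the nearest annotated end for the 4395 coding genes without a start site in the table. Alternatives were windows of 0, 2 and 10 kb, the widest 50% of each list, equal H2A.Z list lengths, a stricter overlap and nearest-gene assignment.

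Named were the 6 genes, their peaks' neighbours, and from each of 8 further lists (96 genes) up to 4 with the widest INO80 peak, up to 3 with H2A.Z in 1 genotype alone, and the 2 nearest in window shares to each occupied gene. Other genes named (among them Hsd3b1, Hsd3b6, Cyp11b1, Cyp11b2, Cyp21a1, Nr0b1 and Rxfp2) were chosen after their values were seen. Some single genes that the rule names are not reported here. The 6 genes and the lists were chosen with earlier results of these data known. No test was run: there is 1 list for the 2 libraries of a group. Python 3.11.15, numpy 2.4.6, pandas 2.3.3 and matplotlib 3.10.9 were used; overlap counts equalled those of bedtools 2.31.1 in 9 of 9 comparisons, and the functions were tested on simulated data.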

Additional observations from a re-analysis of the deposited data

How the results depend on the processing

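Of 70 values (10 counts under 7 alternatives), 59 stayed within 1.5 times the reported count. Some of these could not move. Shortening the wild-type list leaves the counts of INO80 and knockout peaks as they are. Nearest-gene assignment also changed nothing, because every counted peak was already nearest to its gene. With the widest 50% of each list, wild-type H2A.Z was left at 2 of the 6 genes and knockout H2A.Z at 2, with 3 INO80, 3 wild-type and 3 knockout peaks, and 0 knockout peaks lacked a wild-type partner. With the gene body alone or 2 kb flanks, 4 knockout peaks were counted in place of 8 and 0 lacked a partner, since the 3 Insl3 peaks and the peak over Adgrd2-ps beside Nr5a1 fall outside. With the wild-type list shortened by width to 26199 peaks, which removes its peaks under 239 bp, 1 gene (Insl3) had H2A.Z in the knockout alone. INO80 was at 3 genes in every setting except the widest 50% (2 genes), and no setting gave a gene with H2A.Z in the wild type alone. No paired analysis was possible because there is 1 list for the 2 libraries of a group; for the same reason no library could be left out. Depth is unknown, so an absent peak may be a weak one.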

Other observations

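Nr0b1, which encodes a nuclear receptor that represses NR5A1, had an INO80 peak of 1443 bp over 10.2% of its window and no H2A.Z peak in either genotype. Of all INO80 peaks from 1 kb to under 2 kb, 7.31% overlapped no wild-type H2A.Z peak. That share is counted per peak and not per gene window. Rxfp2, the receptor gene of INSL3, had no INO80. Its window held 3 wild-type H2A.Z peaks, none with a knockout partner, and 2 knockout peaks, none with a wild-type partner. Over the whole lists, 30.1% of wild-type and 6.62% of knockout peaks had no such partner. The widest peak of the Rxfp2 window was a wild-type peak of 475 bp, and 29.4% of wild-type peaks from 300 to 499 bp lacked a partner. Its knockout peaks were at most 166 bp wide, and 21.6% of knockout peaks under 200 bp lacked one.

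From the start of Jak3 to the end of B3gnt3, a stretch of 26.2 kb that includes Insl3, there were 6 INO80 peaks that covered 35.9% of the sequence. Wild-type H2A.Z covered 3.48% of it in 4 peaks and knockout H2A.Z 4.86% in 5 peaks. Among the 5 coding genes with the largest INO80 share of their window, Insl3 (68.7%) stood with the predicted genes Gm13278 (70.1%), Gm13276 (68.1%) and Gm13277 (67.4%) and the transcription factor gene Dmrta2 (66.7%).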
